A study of Bos taurus with 90 samples.

Results

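Rumen epithelium was compared with liver in lactating dairy cows through their microRNAs (miRNAs), using the 36 samples whose tissue label was rumen epithelium (18 samples) or liver (18 samples), out of 90 samples from 5 tissues in the series. The animals were mid-lactation Chinese Holstein cows fed diets based on alfalfa hay, corn stover or rice straw, 6 cows per diet, and each diet supplied 6 rumen and 6 liver samples. No group was without a forage treatment, so each comparison is between tissues of fed, lactating animals. Tissue was taken in bulk, about 100 mg per sample per the labels, and the labels give each sample a number within its diet but do not say that the number stands for a cow. Levels are in CPM, that is, the reads of a miRNA per 1000000 reads mapped to all annotated bovine miRNAs of that sample. The files listed 340 miRNAs in rumen epithelium and 330 in liver, 304 of them in both, 36 in rumen epithelium only and 26 in liver only. Each listed miRNA exceeded 1 CPM in at least 9 of the 18 samples of its tissue.

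MiRNAs are short RNAs cut from hairpin precursors, and each guides the silencing of mRNAs that pair with bases near its 5′ end. Many are restricted to a cell lineage, so the miRNA content of a tissue reflects the cells it is made of. The rumen wall is lined by a keratinised stratified squamous epithelium that absorbs the acids of fermentation, whereas the liver is made mostly of hepatocytes and receives the blood draining the gut. In bulk tissue a lower level can mean fewer cells of a type or less of the miRNA per cell, and these cannot be told apart here.

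The CPM values of low miRNAs were whole multiples of the value of 1 read, which gave 2337879 to 9024345 mapped reads (median 4001233) in the rumen samples and 2004942 to 7684530 (median 4427653) in the liver samples. A count of 3 reads was worth 0.332 to 1.28 CPM in rumen epithelium and 0.390 to 1.496 CPM in liver, so values near 1 CPM rested on a handful of reads. The library of liver, alfalfa hay 2 stood apart. It held bta-miR-205 at 1525 CPM, whereas the other 17 liver libraries held between 0 and 12.997 CPM. It was the highest of the 18 livers for 29 of the 43 miRNAs that were at least 4-fold higher in rumen epithelium (another liver library was the highest for at most 8 of them) and for 73 of all 304 miRNAs (24.0%). For the 20 miRNAs at least 8-fold higher in rumen epithelium, its excess over the median of the other livers equalled 1.01% to 17.4% of the rumen mean, with a median of 6.94%. The origin of this excess was not tested. Some results that rest on this library are given with and without it. Other liver means, SDs, sums and ranges below include it.

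The labels matched the listed markers of the 2 tissues. These lists were chosen with earlier results of these data known, so the match is a description only. Of the hepatocyte markers, bta-miR-122, the most abundant miRNA of hepatocytes in mammals, was listed in liver only, at 11021 ± 1144 CPM (SD, n = 18; 8671 to 12721). The stratified epithelium markers bta-miR-205 and bta-miR-31 were both higher in rumen epithelium, with a summed level of 25814 to 54759 CPM against 391 to 2399 CPM in liver. The remaining marker chosen for this epithelium, miR-203, was listed in neither tissue. Endothelial marker bta-miR-126, the product of a gene active in vessel lining, had a summed level over its arms of 16774 to 39440 CPM in rumen epithelium and 22032 to 36510 CPM in liver, so these ranges overlapped.

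Against this background, 110 of the 304 miRNAs (36.2%) were called higher in rumen epithelium and 56 (18.4%) higher in liver, where a call needed an adjusted p under 0.05 by limma with Benjamini-Hochberg adjustment and a difference of at least 2-fold on log2(CPM + 1). The groups did not overlap, with every sample of a tissue above every sample of the other, for 72 miRNAs (23.7%) in favour of rumen epithelium and for 23 (7.57%) in favour of liver, 95 (31.2%) in all. The adjusted p alone passed for 257 miRNAs (84.5%), 167 (54.9%) in favour of rumen epithelium and 90 (29.6%) in favour of liver, so the fold requirement set the size of the lists. The median difference over the 304 miRNAs was 0.43 on the log2 scale on CPM, and it moved to -0.05 under trimmed mean of M values (TMM) scaling and to -0.24 under upper-quartile scaling. The split of calls moved with it, from 66.3% in favour of rumen epithelium on CPM to 47.9% under TMM, with 70 miRNAs (23.0%) higher in rumen epithelium and 76 (25.0%) higher in liver, and to 38.3% under upper-quartile scaling, with 54 (17.8%) and 87 (28.6%). No call reversed its direction between scalings, and 54 rumen calls (17.8%) and 56 liver calls (18.4%) were made under all 3. A small excess in rumen epithelium on CPM is therefore given below with its TMM value.

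**Figure D1:**
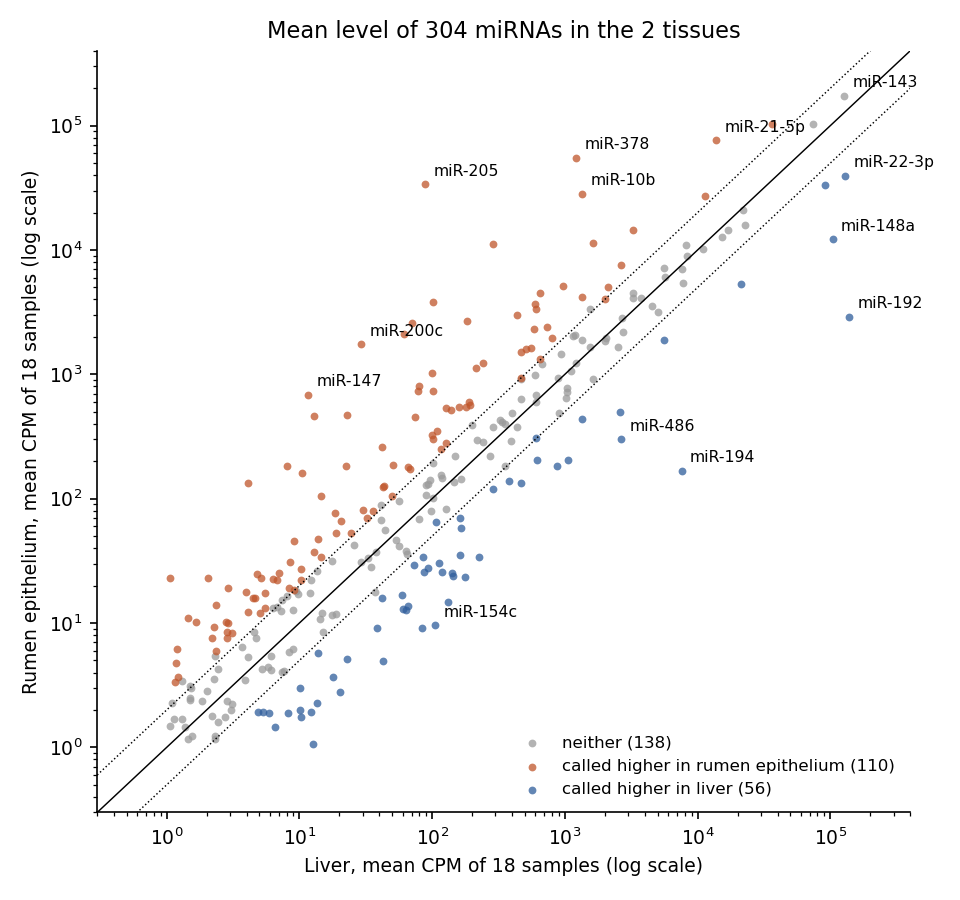
Mean CPM of each of the 304 miRNAs listed in both tissues, liver on the x axis and rumen epithelium on the y axis, both on log scales, with equality (solid) and 2-fold lines (dotted). Points are coloured by call, and bta-miR-205, at 33692 CPM in rumen epithelium and 88.6 CPM in liver (4.09 CPM without the library of liver, alfalfa hay 2), lies farthest above the diagonal, while bta-miR-192 and bta-miR-194 lie farthest below it.

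The most abundant miRNAs of the 2 tissues overlapped in part. The 10 highest took 67.4% ± 1.6 of the reads in rumen epithelium (SD, n = 18) and 76.5% ± 1.3 in liver, and the sample ranges, 65.1% to 72.4% and 73.3% to 78.2%, did not overlap. The names in both lists were bta-miR-143, bta-miR-22-3p, bta-miR-26a, bta-miR-27b and bta-miR-30a-5p. The other names among the rumen 10 were bta-miR-21-5p, bta-miR-378, bta-miR-205, bta-miR-10b and bta-let-7a-5p. Liver had bta-miR-192, bta-miR-148a, bta-let-7f, bta-miR-126-5p and bta-miR-101 in their place. The leading miRNA of rumen epithelium was bta-miR-143, a miRNA of smooth muscle and stromal cells, at 17.4% ± 3.2 of reads, and that of liver was bta-miR-192 at 13.8% ± 1.9. Among the 304 miRNAs, bta-miR-192 ranked 43 in rumen epithelium, and bta-miR-205, which ranked 7 in rumen epithelium, ranked 141 in liver, or 255 without liver, alfalfa hay 2.

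The largest difference in favour of rumen epithelium was that of bta-miR-205, a miRNA of basal and squamous epithelium. Its level was 23016 to 52132 CPM in the rumen samples, with a median of 32788 CPM, and 0 to 1525 CPM in the liver samples, with a median of 1.37 CPM. Every rumen sample was above every liver sample, and without liver, alfalfa hay 2 the highest liver was at 12.997 CPM. The log2 difference was 12.81 ± 0.56 (SE; limma adjusted p = 4.83e-23), or 13.31 without that library. The 6 corn stover livers held 6.24 to 12.997 CPM, and the 6 rice straw livers 0.198 to 1.36 CPM. The alfalfa hay livers other than sample 2 held 0 to 2.05 CPM, at a depth where 3 reads were worth 0.511 to 0.694 CPM. bta-miR-31, which is expressed in keratinocytes, was at 2564 to 6836 CPM in rumen epithelium (median 4272) and 390 to 957 CPM in liver (median 687). These ranges did not overlap either, and the log2 difference was 2.78 ± 0.13 (limma adjusted p = 1.06e-21).

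The miR-200 family restrains the ZEB repressors and so maintains the epithelial state. All 5 tested members were called higher in rumen epithelium, where 36.2% of all miRNAs were. Their log2 differences were 4.45 to 6.19. None of the 5 overlapped between tissues, beside 23.7% of all miRNAs without overlap in favour of rumen epithelium. Their summed level was 12824 to 35851 CPM in rumen epithelium, with a median of 18451 CPM, and 247 to 1896 CPM in liver, with a median of 404 CPM. bta-miR-200c was at 1242 to 2537 CPM in rumen epithelium (median 1687) and 13.1 to 166 CPM in liver (median 18.5), and its highest liver value came from alfalfa hay 2. Its log2 difference was 6.19 ± 0.20 (limma adjusted p = 1.16e-27), or 6.35 without that library. bta-miR-141, which shares a precursor transcript with bta-miR-200c, was the most abundant member at 11165 ± 4489 CPM against 285 ± 207 CPM (SD, n = 18 each). Its liver value was 1038 CPM in alfalfa hay 2 and at most 421 CPM in the other livers. The transcript of the remaining members gave 3815 CPM of bta-miR-200a, 2577 CPM of bta-miR-429 and 473 CPM of bta-miR-200b on average in rumen epithelium, against 101, 70.2 and 22.7 CPM in liver.

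The miR-183 cluster, a group of 3 miRNAs from 1 transcript known from sensory epithelia, followed the same direction. bta-miR-183 was at 261 to 1683 CPM in rumen epithelium (median 343) against 4.60 to 34.0 CPM in liver (median 11.9), and its log2 difference was 5.004 ± 0.21 (limma adjusted p = 2.36e-23). bta-miR-182 differed by 3.94 and bta-miR-96 by 3.49 on the log2 scale. None of the 3 overlapped between tissues, beside 23.7% of all miRNAs without overlap in favour of rumen epithelium. bta-miR-96 was low in liver, at 0.210 to 2.48 CPM, where the value of a few reads sets the fold.

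**Figure D2:**
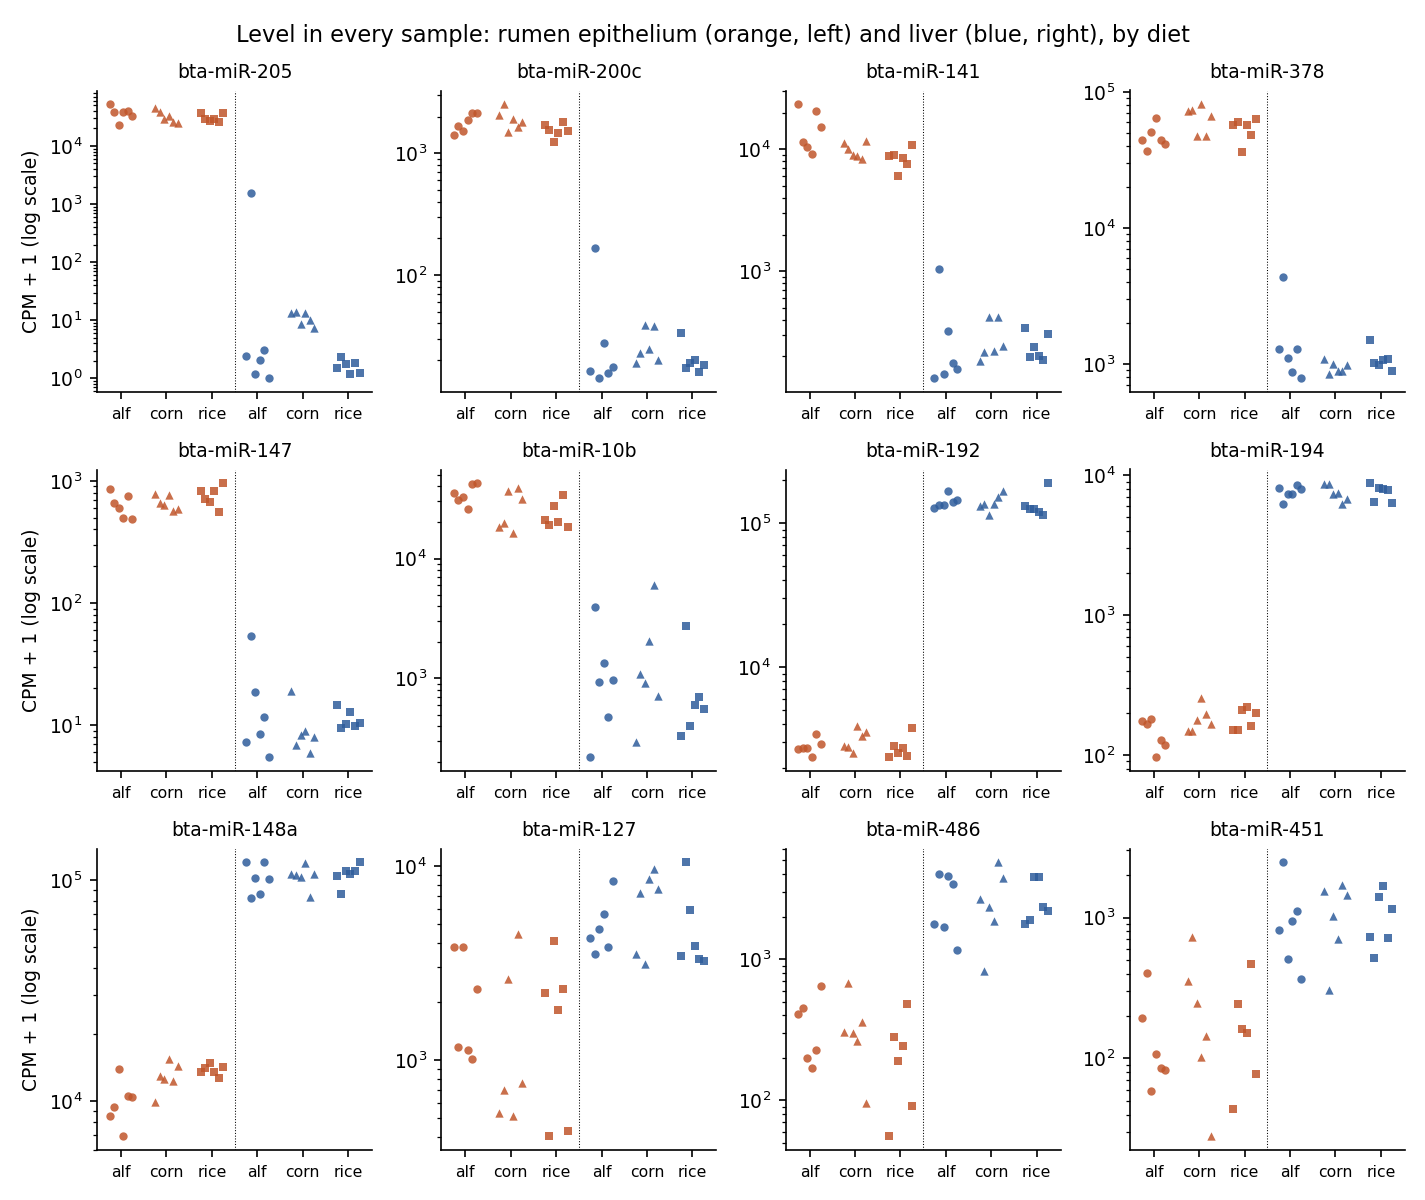
CPM + 1 of 12 miRNAs in each of the 36 samples on a log scale, with rumen epithelium in orange on the left and liver in blue on the right of each panel, ordered by diet (alfalfa hay circles, corn stover triangles, rice straw squares). The circle above the other livers for bta-miR-205, bta-miR-200c, bta-miR-141, bta-miR-378 and bta-miR-147 is the library of liver, alfalfa hay 2, and bta-miR-127 and bta-miR-451 are the panels in which the tissues overlap.

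Beyond epithelial markers, the miR-378 family was higher in rumen epithelium by a similar measure. bta-miR-378, which lies in an intron of the gene for the mitochondrial coactivator PGC-1β in mammals, was at 36042 to 81148 CPM in rumen epithelium (median 54124) and 784 to 4368 CPM in liver (median 1007). No liver came within 8-fold of the lowest rumen sample, and without alfalfa hay 2 the highest liver was at 1503 CPM. The log2 differences were 5.60 ± 0.15 for bta-miR-378 (limma adjusted p = 1.88e-30), 5.14 for bta-miR-378c and 4.39 for bta-miR-378b. Members of this family are close in sequence, and reads allowed to map to several precursors could be shared among them, so their levels are not independent.

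bta-miR-147 was at 490 to 956 CPM in rumen epithelium (median 662) and 4.42 to 52.6 CPM in liver (median 8.59), with no overlap. Its log2 difference was 5.99 ± 0.19 (limma adjusted p = 6.24e-28), or 6.13 without liver, alfalfa hay 2, which held the 52.6 CPM. bta-miR-210, the miRNA most closely tied to hypoxia through HIF1A, was at 447 to 1005 CPM against 53.2 to 107 CPM, a log2 difference of 3.22 ± 0.11 (limma adjusted p = 6.96e-27). The 2 tested HOX cluster miRNAs lie among the genes of anterior to posterior patterning. Both were called higher in rumen epithelium, where 36.2% of all miRNAs were. bta-miR-10b was at 16477 to 42449 CPM in rumen epithelium (median 29106) and 219 to 6005 CPM in liver (median 817). Livers spread more widely for bta-miR-10b than for most miRNAs, and its log2 difference was 4.94 ± 0.31 (limma adjusted p = 5.62e-18). bta-miR-10a differed by 2.22 and overlapped between tissues. bta-miR-196a and bta-miR-615, also from HOX clusters, were listed in rumen epithelium and not in liver, at means of 2.79 and 2.35 CPM.

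bta-miR-21-5p, a miRNA raised in many proliferating tissues, was at 40717 to 109901 CPM in rumen epithelium (median 70095) and 10236 to 19667 CPM in liver (median 13273), and its other arm, bta-miR-21-3p, at 167 to 1255 CPM against 42.9 to 146 CPM. Neither arm overlapped, and the log2 differences were 2.45 ± 0.10 and 3.26 ± 0.20. bta-miR-221 and bta-miR-222, which lower the cell cycle inhibitor p27, differed by 3.39 and 2.88 and did not overlap. Of the 7 tested miRNAs of the miR-23, miR-27 and miR-24 clusters, which include both arms of miR-27a, 6 were called higher in rumen epithelium on CPM. Under TMM 5 were, where 36.2% of all miRNAs were on CPM and 23.0% under TMM. bta-miR-27b was the second most abundant miRNA of rumen epithelium, at 103506 ± 14201 CPM against 36298 ± 3765 CPM in liver (SD, n = 18 each). Its log2 difference was 1.51 ± 0.06 (limma adjusted p = 5.38e-24) on CPM but 0.96 under TMM, where it was no longer called. bta-miR-27a-3p (2.81), bta-miR-24-3p (2.47) and bta-miR-23b-3p (2.39) were called under all scalings.

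Other families had smaller differences whose calls depended on the scaling. Of the 13 tested members of the miR-17-92 cluster and its paralogues, which promote proliferation, 10 were called higher in rumen epithelium on CPM, 5 under TMM and 3 under upper-quartile scaling, where 36.2%, 23.0% and 17.8% of all miRNAs were. bta-miR-93, with 2398 ± 458 CPM in rumen epithelium and 728 ± 98.8 CPM in liver, differed by 1.70 on CPM and 1.15 under TMM. bta-miR-25 (1.25 on CPM, 0.70 under TMM) and bta-miR-19b (1.45 and 0.90) lost their calls under TMM. The most abundant member, bta-miR-92a, was not called, with a log2 difference of -0.33 ± 0.15. Of the 10 tested members of the let-7 family, which repress growth genes in differentiated cells, 4 were called higher in rumen epithelium on CPM, a share near the 36.2% of all miRNAs, and none in liver. Under TMM the count was 1 in each direction. bta-let-7a-5p was at 27133 ± 5266 CPM in rumen epithelium against 11387 ± 1185 CPM in liver, with a log2 difference of 1.23 on CPM and 0.68 under TMM, whereas bta-let-7f stood at -0.53 on CPM and at -1.08 under TMM.

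In the miR-181 family the neighbours bta-miR-181c (1.71) and bta-miR-181d (1.73) were called higher in rumen epithelium on CPM and under TMM, bta-miR-181c was not called under upper-quartile scaling (0.96), and the other 2 members tested were not called on CPM. The cluster of bta-miR-532 and its neighbours on the X chromosome gave 5 calls of 8 on CPM, 3 under TMM and 1 under upper-quartile scaling, beside the same shares of all miRNAs, with bta-miR-532 itself at 1.60 on CPM and 1.05 under TMM. The group of miR-130, miR-301 and miR-454 gave 4 calls of 5 on CPM and under TMM and 3 under upper-quartile scaling. Of all miRNAs, 36.2%, 23.0% and 17.8% were called higher in rumen epithelium on these scales.

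**Figure D3:**
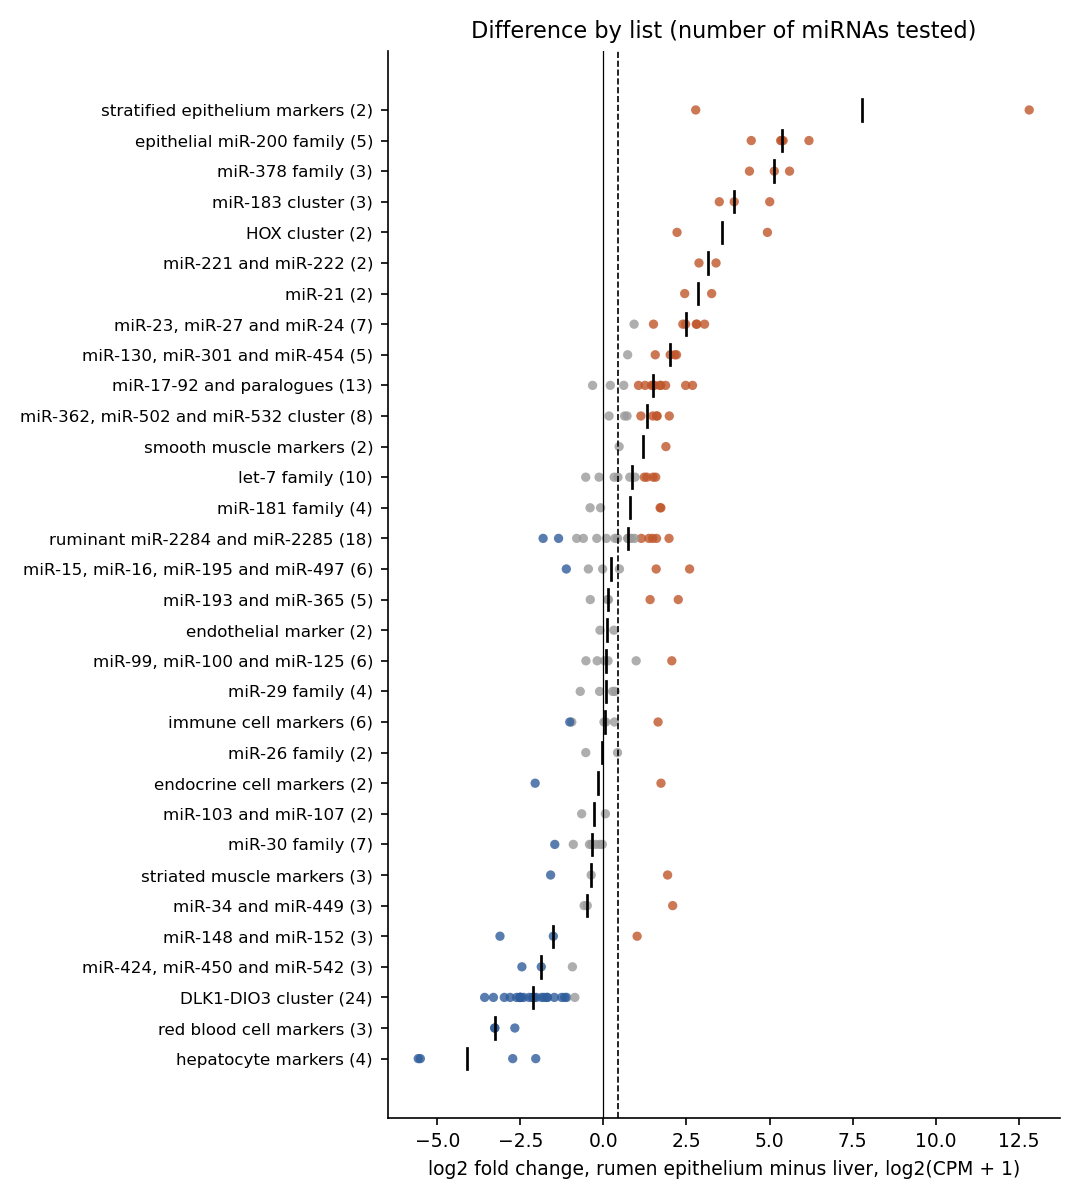
Log2 difference of rumen epithelium minus liver on log2(CPM + 1) for the members of each list with 2 or more miRNAs tested; orange points were called higher in rumen epithelium, blue points higher in liver and grey points neither. Short bars mark list medians and the dashed line the median of all 304 miRNAs, 0.43; the epithelial lists lie at the top and the hepatocyte, red blood cell and DLK1-DIO3 lists at the bottom.

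In the other direction, all 4 tested hepatocyte markers were called higher in liver under each scaling, with no overlap between tissues. Of all miRNAs, 18.4% were called higher in liver on CPM, 25.0% under TMM and 28.6% under upper-quartile scaling. The share without overlap in favour of liver was 7.57%. The markers bta-miR-122 and bta-miR-885 (93.2 ± 29.4 CPM) were listed in liver and not in rumen epithelium. bta-miR-885 was listed also in duodenum, jejunum and mammary gland. bta-miR-192, a miRNA abundant in hepatocytes, was at 113678 to 188688 CPM in liver (median 133989) and 2350 to 3872 CPM in rumen epithelium (median 2759). The lowest liver sample was far above the highest rumen sample, and the log2 difference was -5.57 ± 0.07 (limma adjusted p = 1.45e-41). bta-miR-194, which is made from the same transcript, was at 6244 to 8777 CPM in liver (median 7715) and 95.1 to 253 CPM in rumen epithelium (median 166), a log2 difference of -5.51 ± 0.09 (limma adjusted p = 1.22e-37). bta-miR-101, which represses the histone methyltransferase EZH2, differed by -2.04, and bta-miR-483, which lies within the IGF2 gene, by -2.73. For bta-miR-483 the rumen level was only 0.428 to 2.77 CPM.

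bta-miR-148a, a liver miRNA with targets in lipid handling such as the LDL receptor, was at 83368 to 120485 CPM in liver (median 105695) and 6891 to 15478 CPM in rumen epithelium (median 12844). The groups were well separated, with a log2 difference of -3.11 ± 0.09 (limma adjusted p = 5.84e-30). Its relatives did not all share the direction. bta-miR-152 was higher in liver by 1.51 on the log2 scale, at 138 ± 50.1 CPM in rumen epithelium against 382 ± 64.0 CPM, whereas bta-miR-148b was higher in rumen epithelium by 1.01 on CPM and 0.47 under TMM, where it was not called. bta-miR-22-3p (39540 ± 7657 against 129073 ± 26364 CPM) and bta-miR-30a-5p (33236 ± 5834 against 90878 ± 10412 CPM) were also higher in liver without overlap. bta-miR-30a-5p was the only member called among the 7 tested of its family on CPM, and the others had log2 differences of -0.91 to -0.03. bta-miR-139 (33.9 ± 13.6 against 226 ± 32.6 CPM) and bta-miR-874 (23.4 ± 12.1 against 176 ± 36.9 CPM) completed the non-overlapping miRNAs among the 10 largest in favour of liver that belong to no list.

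The widest set in favour of liver was the DLK1-DIO3 cluster, an imprinted locus whose miRNAs are transcribed from the maternal allele. Of its 24 tested members, 23 were called higher in liver, where 18.4% of all miRNAs were, and none in rumen epithelium. The median log2 difference was -2.12 on CPM and -2.58 under TMM. Under TMM all 24 were called higher in liver, where 25.0% of all miRNAs were. Another 9 members were listed in liver only and none in rumen epithelium only. The summed level of the 24 was 4948 to 18210 CPM in liver (median 7374) and 546 to 6183 CPM in rumen epithelium (median 2122), so the tissues overlapped in the sum. bta-miR-127, the most abundant member, was at 402 to 4434 CPM in rumen epithelium (median 1485) and 3137 to 10451 CPM in liver (median 4472). Rumen samples differed among themselves by over 10-fold, and the log2 difference was -1.86 ± 0.30 (limma adjusted p = 4.37e-07). bta-miR-154c, the member with the largest difference, was at 1.54 to 25.02 CPM in rumen epithelium (median 7.95) and 45.3 to 256 CPM in liver (median 90.7), a log2 difference of -3.57 ± 0.28 (limma adjusted p = 1.35e-14). bta-miR-410 (-3.31), bta-miR-487b (-2.98) and bta-miR-411a (-2.80) followed. Between tissues, 4 of the 24 members did not overlap, beside 7.57% of all miRNAs without overlap in favour of liver.

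The red blood cell markers were all 3 called higher in liver, where 18.4% of all miRNAs were. bta-miR-486, an erythroid miRNA, was at 828 to 4858 CPM in liver (median 2325) and 54.6 to 680 CPM in rumen epithelium (median 270), and did not overlap. bta-miR-144 and bta-miR-451, which are cut from 1 transcript in maturing red cells, differed by -3.27 and -2.66 on the log2 scale and overlapped. The summed level of the 3 was 1154 to 6661 CPM in liver (median 3421) and 99.3 to 1430 CPM in rumen epithelium (median 455). The part of blood in the other liver differences was not tested.

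Markers of other cell types were mixed. Of the smooth muscle markers, bta-miR-145 was called higher in rumen epithelium by 1.88 on the log2 scale without overlap, at 1032 to 6053 CPM against 394 to 1016 CPM, whereas bta-miR-143 from the same transcript stood at 0.47 on CPM and -0.08 under TMM and was not called. Of the striated muscle markers, bta-miR-499 was called higher in rumen epithelium (17.8 ± 3.55 against 3.96 ± 1.17 CPM) and bta-miR-133a higher in liver (58.2 ± 29.4 against 165 ± 51.9 CPM). The summed level of the 3 striated muscle markers was 43.2 to 144 CPM in rumen epithelium and 94.2 to 282 CPM in liver.

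Of the 6 immune cell markers tested, 1 was called in each direction on CPM. Of all miRNAs, 36.2% were called higher in rumen epithelium and 18.4% higher in liver. Under TMM 1 marker was called higher in rumen epithelium and 2 higher in liver, beside 23.0% and 25.0% of all miRNAs. The marker called higher in liver on CPM was bta-miR-223, at -1.01. Its difference was -1.95 on alfalfa hay, -0.78 on corn stover and -0.30 on rice straw. bta-miR-155, which is induced in activated lymphocytes and macrophages, was higher in rumen epithelium by 1.64 on CPM and 1.10 under TMM and was not called under upper-quartile scaling. The B and T cell miRNA bta-miR-150 stood at -0.95 and was not called on CPM. The pan-leukocyte bta-miR-142-5p was at 6083 ± 1674 CPM in rumen epithelium and 5654 ± 1274 CPM in liver, a log2 difference of 0.07 ± 0.13. The endocrine markers split, with bta-miR-7 higher in rumen epithelium by 1.73 and bta-miR-375 higher in liver by 2.05. The highest bta-miR-375 value in liver, 475 CPM, came from alfalfa hay 2, and the difference was -1.92 without it.

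Among miRNAs with a mean of at least 1000 CPM in both tissues, the 5 with the smallest differences on CPM were bta-miR-146a (0.02), bta-miR-100 (0.03), bta-miR-30b-5p (-0.03), bta-miR-103 (0.06) and bta-miR-142-5p (0.07). Their standard errors were 0.09 to 0.33. Under TMM all 5 lay between -0.58 and -0.48, close to the shift of the median, so differences this near 0 were found on the CPM scale only. The value of bta-miR-100 combined 1.56 on alfalfa hay, -0.90 on corn stover and -0.56 on rice straw, and it was -0.68 without 4 of the alfalfa hay rumen libraries.

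The tissue differences were then compared across diets. With 6 against 6 samples of a diet, 100 miRNAs were called higher in rumen epithelium on alfalfa hay, 119 on corn stover and 109 on rice straw, and 59, 58 and 54 were called higher in liver. In each of the 3 diets alone, 88 miRNAs were called higher in rumen epithelium and 49 higher in liver, and none was called in opposite directions. The moderated F test of the tissue by diet interaction (limma, Benjamini-Hochberg over 304) passed for 3 miRNAs (0.987%), namely bta-miR-100, bta-miR-99b and bta-miR-1246, and 46 had an unadjusted p under 0.05.

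bta-miR-99b, which shares a transcript with bta-let-7e and bta-miR-125a, differed between the tissues by 3.39 on alfalfa hay, 1.36 on corn stover and 1.43 on rice straw (log2; adjusted p of the interaction 0.0279). In rumen epithelium on alfalfa hay it was at 14009, 1870, 1610, 7216, 9291 and 13008 CPM in samples 1 to 6, and the 12 rumen samples of the other diets lay between 1167 and 2401 CPM. Samples 1, 4, 5 and 6 were therefore high, and samples 2 and 3 lay in the range of the other diets. bta-miR-100, a related miRNA from another locus, was at 9339, 708, 937, 4485, 6522 and 6500 CPM in the same 6 samples, against 503 to 972 CPM in the rumen samples of the other diets. Its difference between tissues was 1.56 on alfalfa hay, -0.90 on corn stover and -0.56 on rice straw (adjusted p 0.0279). bta-miR-1271, which was singled out after its values were seen, was high in the same 4 samples, at 759, 351, 653 and 346 CPM, against 12.4 to 26.9 CPM in the other 14 rumen samples and 2.04 to 7.89 CPM in liver. Its own interaction did not pass (adjusted p = 0.0965). With those 4 libraries left out, no interaction passed by limma, 10 miRNAs had an unadjusted p under 0.05 and the smallest adjusted p was 0.915. The unadjusted p (limma F test) was then 0.398 for bta-miR-100, 0.682 for bta-miR-99b and 0.0376 for bta-miR-1246. Only samples 2 and 3 of alfalfa hay then remained in rumen epithelium. A loss of power therefore cannot be told apart from a dependence on those libraries. Tissue calls stayed near those of the full set, with 115 higher in rumen epithelium and 53 higher in liver without the 4 libraries.

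bta-miR-1246 was low throughout, at 6.21 to 56.4 CPM in rumen epithelium and 1.31 to 38.7 CPM in liver. Its difference between tissues was -0.23 on alfalfa hay, 2.34 on corn stover and 1.44 on rice straw (adjusted p of the interaction 0.0279, or 0.0604 without liver, alfalfa hay 2, which held the 38.7 CPM). That library also decided the interaction of bta-miR-205, whose difference between tissues was 12.70 on alfalfa hay, 11.52 on corn stover and 14.22 on rice straw. Its adjusted p was 0.409 with all 36 libraries and 6.05e-08 without liver, alfalfa hay 2, when the corn stover livers stood above the others at 6.24 to 12.997 CPM. Without that library 3 interactions passed (limma), namely those of bta-miR-205, bta-miR-100 and bta-miR-99b. The next smallest interaction p-values belonged to bta-miR-155 (adjusted p = 0.0866) and bta-miR-146a (0.0965), neither of which passed in the main design. With a replicate block (diet and number), bta-miR-155 and bta-miR-142-3p passed (limma adjusted p = 0.0168 each). In that fit bta-miR-99b did not pass (0.0565).

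**Figure D4:**
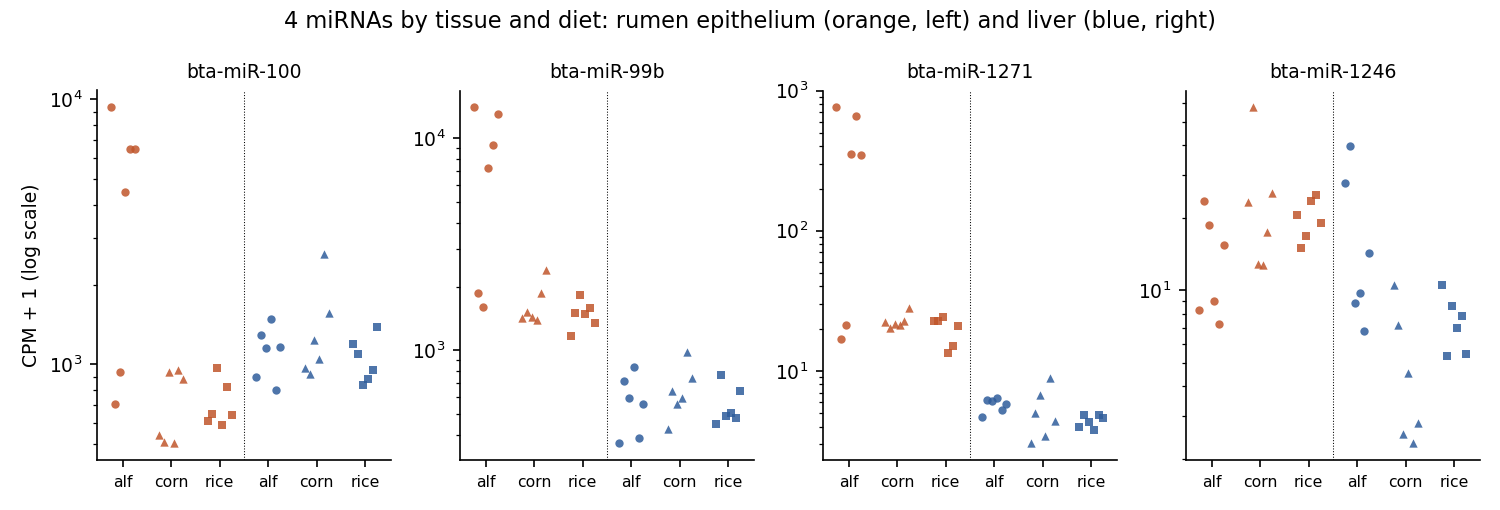
CPM + 1 on a log scale of bta-miR-100, bta-miR-99b, bta-miR-1271 and bta-miR-1246 in each sample, by tissue (rumen epithelium orange, liver blue) and diet (alf, alfalfa hay; corn, corn stover; rice, rice straw). For the first 3 miRNAs, 4 of the 6 alfalfa hay rumen samples lie above all other rumen samples, and for bta-miR-1246 the tissues overlap on alfalfa hay.

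Hairpins give a 5p and a 3p product, and the ratio of the arms was compared for the 24 hairpins that had both arms listed in both tissues. The arm with the higher mean was the same in both tissues for 22 of 24. The ratio differed at an adjusted p under 0.05 (limma) for 19 hairpins (79.2%), in favour of the 5p arm in rumen epithelium for 7 and in liver for 12, and reached 2-fold for 3 (12.5%). The largest change was that of bta-miR-423, with 923 CPM of 5p and 2037 CPM of 3p in rumen epithelium, but 1616 CPM of 5p and 1142 CPM of 3p in liver. The leading arm was thus 3p in rumen epithelium and 5p in liver, and the log2 ratio differed by -1.61 ± 0.09 (SE; limma, adjusted p = 1.03e-19 over 24 hairpins), or by -1.61 and -1.60 with pseudocounts of 0.1 and 5 CPM. The other calls, bta-miR-362 (1.27) and bta-miR-411c (-1.25), each involved a 3p arm of at most 8.42 CPM in either tissue, and each lost its call with another pseudocount, bta-miR-362 at 5 CPM (0.98) and bta-miR-411c at 0.1 CPM (-0.85). bta-miR-21, bta-miR-22 and bta-miR-126 kept their leading arm, with ratio differences of -0.81, 0.35 and -0.42.

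**Figure D5:**
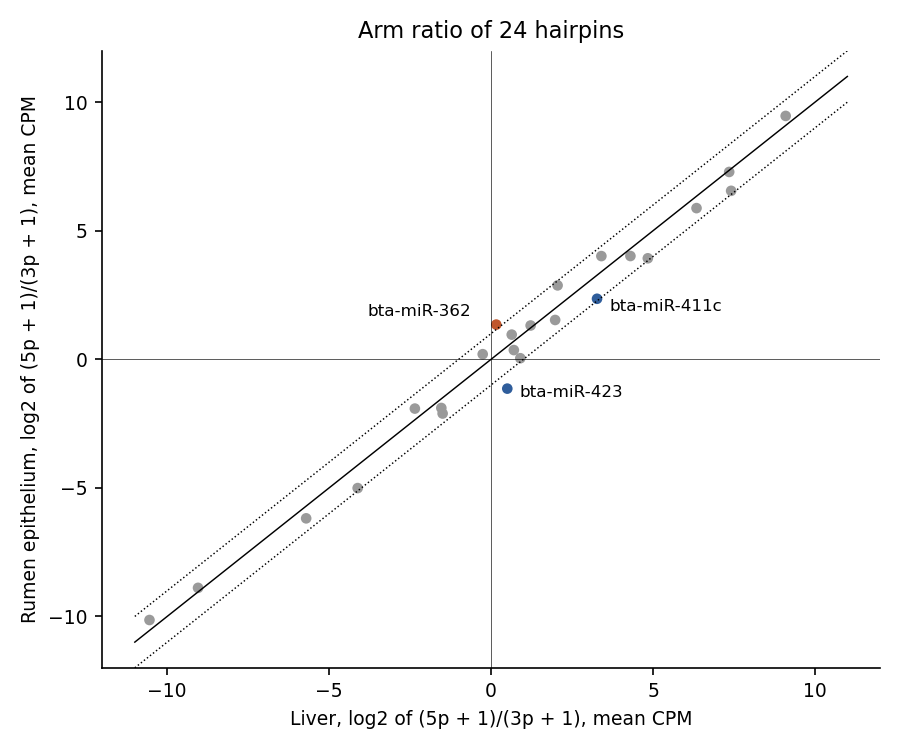
Log2 of the 5p over the 3p level (mean CPM + 1) of 24 hairpins in liver (x axis) and rumen epithelium (y axis), with equality (solid) and 2-fold lines (dotted). Called hairpins are coloured by the tissue with the higher 5p share (orange rumen epithelium, blue liver); bta-miR-423, to the lower right of the origin, has its 5p arm ahead in liver and its 3p arm ahead in rumen epithelium.

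MiRNAs that lie near each other are often cut from 1 transcript. Grouping hairpins by gaps of at most 10000 bases in the RefSeq annotation, which matched 302 of the 304 miRNAs, gave 45 groups with 131 miRNAs. Of the 45 groups 23 held 2 miRNAs, some held both arms of a hairpin and some shared members, so the counts that follow are a description only. Every member was called higher in rumen epithelium in 11 groups, such as bta-miR-200a with bta-miR-200b and bta-miR-429, and higher in liver in 4, such as bta-miR-144 with bta-miR-451. The largest group held 19 miRNAs of the DLK1-DIO3 locus, of which 18 were called higher in liver. A miRNA name that stands for several hairpins, such as bta-miR-194, entered each group with the same value.

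MiRNAs listed in 1 tissue only were mostly low. The 36 listed in rumen epithelium only had a median of means of 1.804 CPM, and 1 of them reached a mean of 10 CPM, bta-miR-211 at 16.3 ± 16.7 CPM (1.27 to 57.8). It was followed by bta-miR-129 (9.10 ± 6.11 CPM), which held the same value as bta-miR-129-5p in every sample and is therefore 1 measurement under 2 names, by bta-miR-2285p (8.82 ± 3.86 CPM) and by bta-miR-330 (7.96 ± 3.85 CPM). The 26 listed in liver only had a median of 3.31 CPM, and 4 reached 10 CPM. After bta-miR-122 and bta-miR-885 these were bta-miR-2483-5p (46.8 ± 25.6 CPM) and bta-miR-2483-3p (29.2 ± 17.4 CPM), and bta-miR-2415-3p was next at 8.40 ± 7.66 CPM. Of the other 3 tissues of the series, none listed 14 of the 36 rumen miRNAs or 11 of the 26 liver miRNAs. bta-miR-122 was listed also in mammary gland, and bta-miR-885 and bta-miR-2483-5p were listed in all 3 of those tissues. Since a miRNA below the listing threshold has no value in the other tissue, no fold was computed for these.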

How the data were processed

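Small RNA of 18 rumen epithelium and 18 liver samples was analysed. Per the study's methods, RNA was extracted with a mirVana kit, libraries were sequenced on an Illumina instrument (CASAVA 1.8 in the submitters' processing notes), and reads longer than 15 bases were mapped to the bovine precursors of miRBase release 22 with sRNAbench, with up to 2 mismatches and 10 locations. The authors deposited CPM, normalised to all reads mapped to annotated miRNAs, listing for each tissue the miRNAs that exceeded 1 CPM in at least 50% of its samples. Such values depend on the other miRNAs in the library, and reads shared by related hairpins cannot be separated. The smallest values stepped by the worth of 1 read (within 0.02 reads), and the step gave the mapped totals. No samples held identical values.

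Computed here were log2(CPM + 1), with a pseudocount of 1 CPM that understates changes of low miRNAs, and 2-sided moderated tests with an intensity trend (R 4.3.3, limma 3.58.1) for tissue, for tissue by diet (F test) and, without trend, for arm ratios, with Benjamini-Hochberg adjustment over 304 miRNAs or 24 hairpins. Python 3.11.15 handled the tables. All 304 miRNAs passed the low-value filter. Arms were paired only where both names end in 5p and 3p. The procedures were tested on simulated data. The CPM of 18 rumen and liver pairs with equal numbers correlated, as deviations from group means, at -0.43 to 0.45 (median 0.01), over 0.1 in 6 of 18. This cannot show whether a number marks a cow, since the tissues of a cow need not deviate together. The study's design text says that the tissues came from the same cows, but no label ties a number to a cow. The main tests therefore treated the samples as independent, and a block by diet and number was an alternative.

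Members and lists were chosen with earlier results of these data known. MiRNAs named were the 10 highest per tissue, the 10 largest differences each way with at least 10 CPM in the higher tissue, the 5 smallest interaction p-values, called arm ratios, the 5 smallest differences over 1000 CPM, the 5 highest of 1 tissue only, and up to 4 examples per list; bta-miR-200b, bta-miR-1271 and other arm ratios or list members were added after their values were seen. RefSeq's ARS-UCD2.0 gave only which miRNAs neighbour each other. Alternatives were other pseudocounts, scalings, filters, fold thresholds, single diets, a diet term, a replicate block and leaving out libraries.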

Additional observations from a re-analysis of the deposited data

Results flagged for a closer look

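Over 7 miRNAs that the report gives by diet, 42 groups of 6 samples were searched for a sample far from the others, and 5 were found. A sample was far when its gap to the nearest, as a share of the group's range, was over Dixon's 95% value. These miRNAs were picked from the same data, so the rate of 1 in 20 that chance gives does not apply to them. In the alfalfa hay livers, bta-miR-205 was at 1525 CPM in sample 2 and the next was at 2.05 CPM. In rumen epithelium, bta-miR-155 was at 484 CPM in alfalfa hay sample 2 (next 220 CPM). That value lay within the 285 to 513 CPM of the rumen samples of the other diets. Alfalfa hay rumen samples 1, 4, 5 and 6 lay below that range, at 114, 139, 157 and 141 CPM. Also in rumen epithelium, bta-miR-1246 was at 56.4 CPM in corn stover sample 2 (next 24.4 CPM). There bta-miR-1271 was at 26.9 CPM in corn stover sample 6 (next 21.8 CPM). In the rice straw livers, bta-miR-155 was at 179 CPM in sample 1 (next 119 CPM). The difference between tissues itself differed between diets for bta-miR-100, bta-miR-99b and bta-miR-1246, each with an adjusted p of 0.0279 (limma F test of the interaction), and none of these passed without 4 rumen libraries on alfalfa hay (smallest adjusted p over all miRNAs 0.915).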

How the results depend on the processing

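Of 1134 values recomputed for 85 named results, 1065 kept their direction and side of the threshold, 31 lost a call, 12 gained one and 26 changed sign. The counts higher in rumen epithelium and in liver, 110 and 56, became 54 and 87 under upper-quartile scaling, 70 and 76 under TMM, 43 and 30 at 4-fold and 167 and 90 with no fold threshold, and 89 to 139 and 48 to 71 under the others. With the replicate block (diet and number) they were again 110 and 56, with 3 arm calls and 4 interaction calls, of bta-miR-1246, bta-miR-155, bta-miR-142-3p and bta-miR-100, while bta-miR-99b lost its call (adjusted p = 0.0565 by limma); 2 of 18 rumen samples correlated best with the liver of their own number. Interaction calls, 3 in the main design, fell to 0 without 4 alfalfa hay rumen libraries and were 2 to 4 otherwise, with bta-miR-205 (6.05e-08, its alfalfa hay minus rice straw term moving from -1.52 to 0.104) in place of bta-miR-1246 without liver, alfalfa hay 2. Arm calls, 3, became 19 with no fold threshold and 1 where both arms had at least 10 CPM. Sign changes concerned uncalled differences except bta-miR-1246 on alfalfa hay alone (-0.23). Under upper-quartile scaling and TMM they were bta-miR-143 (-0.27, -0.077), bta-miR-26a (-0.32, -0.13), bta-miR-142-5p (-0.68, -0.48), bta-miR-146a (-0.73, -0.53), bta-miR-100 (-0.72, -0.52) and bta-miR-103 (-0.69, -0.49). On alfalfa hay alone they were bta-miR-142-5p (-0.46), bta-miR-146a (-0.73) and bta-miR-103 (-0.20), on corn stover bta-miR-100 (-0.90), bta-miR-30b-5p (0.056) and bta-miR-92a (0.056), and on rice straw bta-miR-126-5p (0.060) and bta-miR-100 (-0.56). Without libraries under 3000000 reads bta-miR-146a gave -0.061 and bta-miR-30b-5p 0.046, and without the 4 rumen libraries bta-miR-100 gave -0.68 and bta-miR-30b-5p 0.0078. The causes were not tested. Leaving out the 4 rumen libraries, and leaving out liver, alfalfa hay 2, were chosen after seeing the data. Count models were planned but not run, since the deposited values are CPM. Depth limits values near 1 CPM.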

Other observations

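The miR-2284 and miR-2285 miRNAs, a large family described in ruminants, were called in both directions. Of 18 tested, 5 were called higher in rumen epithelium and 2 higher in liver on CPM, where 36.2% and 18.4% of all miRNAs were, and 3 and 4 were under TMM, where 23.0% and 25.0% were, with a median log2 difference of 0.74 on CPM and 0.23 under TMM. bta-miR-2285f was higher in liver without overlap, at 91.1 to 188 CPM in rumen epithelium (median 134) and 360 to 646 CPM in liver (median 463), a log2 difference of -1.81 ± 0.09 (limma adjusted p = 1.62e-20). Another 7 members were listed in rumen epithelium only and none in liver only. The summed level of the 18 was 1053 to 1789 CPM in rumen epithelium and 1105 to 1470 CPM in liver. Members are close in sequence and may share reads.

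The miR-424 and miR-450 genes are neighbours on the X chromosome. Their 3 tested miRNAs summed to 30.7 to 68.4 CPM in rumen epithelium and 113 to 478 CPM in liver. bta-miR-424-5p stood at -0.93 on CPM and was not called. Under TMM all 3 were called higher in liver, where 25.0% of all miRNAs were. bta-miR-424-3p and bta-miR-542-5p were listed in liver and not in rumen epithelium. bta-miR-450b was at 15.2 to 40.6 CPM in rumen epithelium and 77.0 to 295 CPM in liver (log2 difference -2.45 ± 0.15), and bta-miR-450a at 6.18 to 12.9 CPM against 21.6 to 80.5 CPM (-1.87 ± 0.15), each without overlap and called by limma. In the miR-29 family none of 4 was called on CPM, and bta-miR-29a, at -0.70 on CPM, was called higher in liver under TMM at -1.25.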
